A study of Mus musculus with 9 samples.

Results

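Srpk1 and Prpf4b encode kinases of the splicing machinery, and this account covers their introns in polyadenylated RNA from mouse embryonic stem cells of the line v6.5. The members are all introns listed under either gene name in the authors' table, 10 of its 22228 introns: 7 of Srpk1 and 3 of Prpf4b. The authors classed 1 intron of each gene as detained, intron 14 of Srpk1 and intron 12 of Prpf4b. Of all introns listed, 15.5% had that class, and 34.6% of 7016 genes had at least 1 of them. Cells of the same line received either KH-CB19, which inhibits the Clk kinases, or an equal volume of its solvent DMSO. The harvest followed immediately (0 h) or 2 h later. Each of the 4 groups (DMSO at 0 h, KH-CB19 at 0 h, DMSO at 2 h, KH-CB19 at 2 h) held 2 libraries that the labels call independent biological replicates. The values used here are the authors' means of each group, so no spread between replicates can be given, and the untreated library of the series was not analysed here.

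Srpk1 is a member of the SRPK family, which adds phosphate to serines in the arginine- and serine-rich tails of SR proteins, mostly in the cytoplasm, and so helps them enter the nucleus. The Clk kinases act on the same proteins inside the nucleus. Prpf4b, also called PRP4 kinase, belongs like the Clk kinases to the CMGC kinase group. It travels with the tri-snRNP, the particle that brings the U4, U6 and U5 snRNAs to the forming spliceosome, and phosphorylates tri-snRNP proteins such as Prpf6 and Prpf31. A detained intron is one that stays behind in an otherwise spliced, polyadenylated transcript, which is held in the nucleus until the intron is removed or the transcript decays.

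All 10 introns lay between coding exons, and both detained introns lay near the 3′ end of the coding sequence, as did some of the others. Intron 14 of Srpk1 spans 1882 bp at chr17:28729233-28731114 (mm9, minus strand), and intron 12 of Prpf4b spans 607 bp at chr13:34991093-34991699 (mm9, plus strand). By length the first was longer than 57.6% of detained introns and the second longer than 21.8%. All 10 introns had a length found once among the introns of the principal GENCODE M21 transcript of their gene, with 1 offset between builds per gene. In that annotation intron 14 of Srpk1 follows coding exon 13 of a transcript with 15 introns, so the table's number is higher by 1. It falls after 82.3% of the coding bases and between codons. Intron 12 of Prpf4b follows exon 12 of a transcript with 14 introns, after 85.4% of the coding bases, and splits a codon after its first base. Listed introns without the detained class lay as late: Srpk1 introns 13 and 15 after 76.7% and 85.9%, and Prpf4b introns 11 and 14 after 81.6% and 93.3%. The other Srpk1 introns listed lay earlier, the last of them after 40.0%. No other annotated gene overlapped any of the 10 introns.

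The exon junctions that form when these introns are removed are shown first, from the GENCODE transcripts, 5′ to 3′. The last base of the exon before and the first base of the exon after the intron are in capitals.
Srpk1 intron 14 junction: agcacagcatgcatGGcctttgaactagcc
Prpf4b intron 12 junction: gtgctccggagatcATtataggtaaaagct

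Intron 12 of Prpf4b contains an annotated exon. A GENCODE transcript of the nonsense-mediated decay class holds a 141-base exon there, 91 bases into the intron and 375 bases before its end. The reading frame runs through 86 bases of that exon and ends in a TAG stop codon, 52 bases before the exon's end. The stretch up to that stop, with the stop codon in capitals, shows where translation would end.
Prpf4b exon inside intron 12: aggagtcttggtcatgtcgagcaagagTAG
The table gives 1 count for the whole intron, so reads from this exon and from the rest of the intron cannot be told apart.

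For Srpk1, 2 transcripts of the retained intron class reach from the following exon into intron 14, over its last 276 and 507 bases. These and similar transcripts hold the 3′ ends of 4 Srpk1 introns, shown to set the detained intron beside its neighbours. Each line has the last 20 bases of the intron, with the final AG in capitals, and 10 bases of the next exon.
Srpk1 intron 14, detained: atgcgctgtctcttccttAGgcctttgaac
Srpk1 intron 15: tctgaaatgtctgtatgcAGaccacatcgc
Srpk1 intron 9: tttgtctccttccttttcAGtcagcactgc
Srpk1 intron 10: tgtttgtaatctccgcccAGgctgacaaaa
Of the 18 bases before the AG, 14 were pyrimidines in the detained intron, against 10 in intron 15, 17 in intron 9 and 13 in intron 10. The detained intron thus lay within the range of the others.

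The first question was which introns of the 2 genes held more reads than the authors' expected count at 0 h. Srpk1 intron 14 stood out. It had a mean of 233.0 observed and 46.5 expected reads in DMSO, and of 205.5 observed and 39.5 expected in KH-CB19. The excess was 5.01-fold in DMSO in the authors' deposited table (log2 ratio 2.33, adjusted p = 2.95e-18). It was 5.20-fold under KH-CB19 by the authors' deposited table (log2 ratio 2.38, adjusted p = 4.37e-17). Both groups thus gave nearly the same excess, above that of 73.6% of detained introns in DMSO and 76.1% in KH-CB19.

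Prpf4b intron 12 had a larger ratio from far fewer reads. It had 44.5 observed and 6.0 expected reads in DMSO, and 23.5 observed and 4.5 expected in KH-CB19. The excess was 7.42-fold in DMSO in the authors' deposited table (log2 ratio 2.89, adjusted p = 3.47e-07), above 88.0% of detained introns. In KH-CB19 it was 5.22-fold by the authors' deposited table (log2 ratio 2.38, adjusted p = 0.0234), above 76.2%. These ratios rest on few expected reads: with a pseudocount of 10 reads the log2 ratios were 1.77 in DMSO and 1.21 in KH-CB19. The sources used here do not give the rule behind the detained class. If it used these ratios, the excess of the 2 introns follows from their class.

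The other 6 introns of Srpk1 fell on both sides of expectation. Intron 9 had 82.5 observed and 45.0 expected reads in DMSO, and 70.5 and 38.5 in KH-CB19. Its log2 ratio in the authors' deposited table was 0.87 in both groups (adjusted p = 0.0149 in DMSO and 0.0261 in KH-CB19), so it was above expectation without the detained class. Introns 2, 7 and 13 held fewer reads than expected. Intron 2, the longest listed for Srpk1 at 13212 bp, had 54.0 observed and 124.5 expected reads in DMSO and 52.5 and 106.0 in KH-CB19. The authors' deposited table gave it log2 ratios of −1.21 (adjusted p = 8.15e-05) and −1.01 (adjusted p = 0.00214). Intron 13, the neighbour upstream of the detained intron, had 34.0 observed and 73.0 expected reads in DMSO and 34.5 and 62.0 in KH-CB19. For it the authors' deposited table listed log2 ratios of −1.10 (adjusted p = 0.00374) and −0.85 (adjusted p = 0.0422). Intron 7 had 21.5 observed and 43.5 expected reads in DMSO and 16 and 37.0 in KH-CB19, with log2 ratios of −1.02 (adjusted p = 0.0365) and −1.21 (adjusted p = 0.0250) in the authors' deposited table. A deficit thus held in both groups for these 3 introns.

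The remaining introns did not pass in either group. Srpk1 intron 15, downstream of the detained intron, had 53.0 observed and 31.5 expected reads in DMSO and 35.0 and 27 in KH-CB19. The authors' deposited table listed log2 ratios of 0.75 (adjusted p = 0.0888) and 0.37 (adjusted p = 0.536). Srpk1 intron 10 had 30.0 and 19.5 reads in DMSO and 20.5 and 16.5 in KH-CB19, with log2 ratios of 0.62 (adjusted p = 0.303) and 0.31 (adjusted p = 0.728) in the authors' deposited table. In Prpf4b, the other introns listed, one upstream and one further downstream, were both nearer to expectation than it was. Intron 11 had 28.0 observed and 15.0 expected reads in DMSO and 24.5 and 10.5 in KH-CB19, with log2 ratios of 0.90 (adjusted p = 0.142) and 1.22 (adjusted p = 0.0703) in the authors' deposited table. Intron 14 had 15.5 and 8.0 reads in DMSO and 14.5 and 6.0 in KH-CB19, with log2 ratios of 0.95 (adjusted p = 0.273) and 1.27 (adjusted p = 0.167) in the authors' deposited table.

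**Figure D1:**
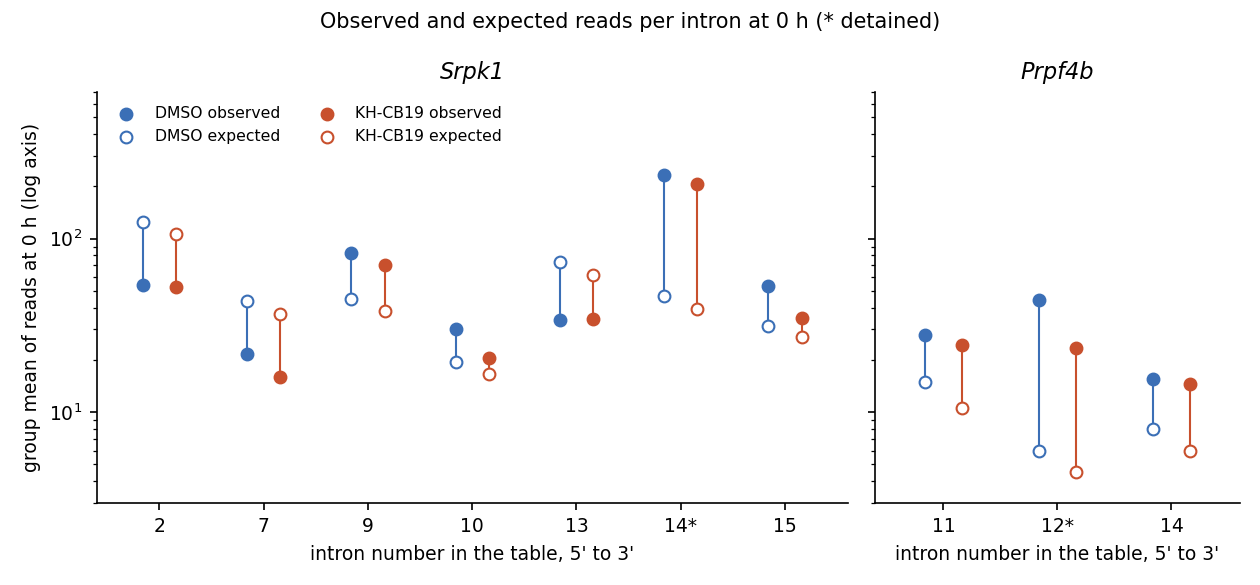
Group means of observed (filled) and expected (open) reads at 0 h on a log axis for each intron of Srpk1 and Prpf4b, in transcript order, in DMSO (blue) and KH-CB19 (red), each point being the authors' mean of 2 libraries. Srpk1 intron 14 is the highest point of its gene at 233.0 observed reads in DMSO, while introns 2, 7 and 13 lie below their expected counts in both groups.

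In all, 3 of the 10 introns were above and 3 below expectation in DMSO at adjusted p below 0.05, beside 28.2% above and 10.9% below among all introns with a DMSO value in the authors' deposited table. The share above was close to that background. In KH-CB19, 3 were above and 3 below, beside 27.6% and 8.93% of all introns in the authors' deposited table. The 6 introns called were the same in both groups and went the same way. How often calls agreed between the groups over all introns was not computed. All 3 below expectation belonged to Srpk1. A gene with calls on both sides is common at this size: of 228 genes with 7 introns with a DMSO value, 53.9% had at least 1 intron above and at least 1 below in the authors' deposited table.

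**Figure D2:**
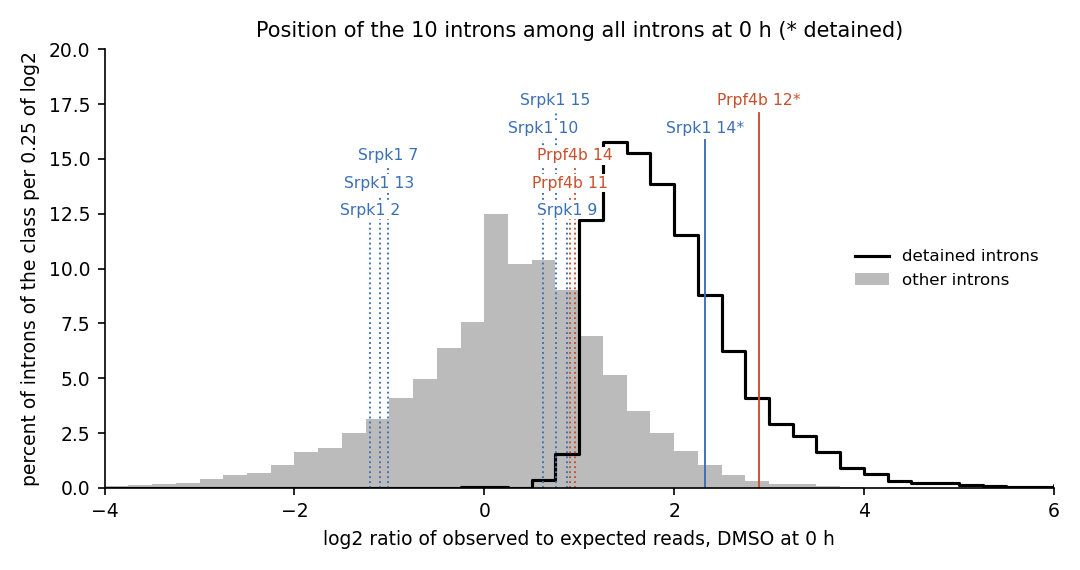
Percent of introns per 0.25 of the log2 ratio of observed to expected reads in DMSO at 0 h, for detained introns (black outline) and other introns (grey bars), with a line at each of the 10 introns (Srpk1 in blue, Prpf4b in red, solid where detained). The axis is drawn from −4 to 6 on the log2 scale. Srpk1 intron 14 at 2.33 and Prpf4b intron 12 at 2.89 lie in the upper part of the detained introns, and the other 8 lie between −1.21 and 0.95.

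Per length, the 2 detained introns were the most densely covered of those listed for their genes. Srpk1 intron 14 had 124 observed reads per kb in DMSO at 0 h and 109 in KH-CB19. The other Srpk1 introns had between 4.09 (intron 2) and 72.8 (intron 10) reads per kb in DMSO. The detained intron was 4.25-fold above their median in DMSO and 4.65-fold in KH-CB19. Prpf4b intron 12 had 73.3 observed reads per kb in DMSO and 38.7 in KH-CB19, against 9.37 and 16.5 for introns 11 and 14 in DMSO. Per kb, Srpk1 intron 14 thus had the higher level of the 2 detained introns in both groups. The expected counts grew less than in proportion to length: in Srpk1 they fell from 47.3 per kb in intron 10 (412 bp) to 9.42 per kb in intron 2 (13212 bp) in DMSO. A comparison by reads per kb and one by expected counts therefore weigh long introns differently.

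The detained intron supplied much of the intronic signal listed for its gene. Srpk1 intron 14 held 45.9% of the observed reads of the gene's 7 listed introns in DMSO (exact 95% binomial interval 42.8 to 49.0%), against 12.1% of the expected ones. In KH-CB19 it held 47.3% (43.9 to 50.7%), against 12.1% expected. Prpf4b intron 12 held 50.6% of the reads of 3 introns in DMSO (42.9 to 58.2%) and 37.6% in KH-CB19 (29.1 to 46.7%), against 20.7% and 21.4% expected. These intervals rest on the sum of 2 libraries and cover counting error only. Shares of this size were usual: over 1079 genes with 1 detained intron among at least 3 introns with 0 h values, the median share in DMSO was 47.3% observed (quartiles 33.4 and 60.5%) and 20.4% expected. Without the detained intron, the observed reads of Srpk1 came to 0.816 of the expected ones in DMSO and 0.798 in KH-CB19. The same ratio for Prpf4b was 1.89 and 2.36.

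The 0 h groups also give the background of the drug comparison, since the cells were harvested at once. Observed means were lower in KH-CB19 than in DMSO over the whole table, with a median ratio of 0.800 over 18080 introns, and values here are log2 ratios relative to that median. Srpk1 intron 14 went from 233.0 to 205.5 reads, a relative log2 ratio of 0.14 (exact 95% counting interval −0.05 to 0.34). The other Srpk1 introns lay between −0.28 (intron 15) and 0.34 (intron 13), and the interval of every Srpk1 intron held 0. Prpf4b intron 12 went from 44.5 to 23.5 reads, a relative log2 ratio of −0.60 (−1.14 to −0.07). It was the lowest of the 10 introns, with a value above only 2.55% of all introns, and its interval did not hold 0. Introns 11 and 14 of Prpf4b had relative log2 ratios of 0.13 (−0.45 to 0.71) and 0.23 (−0.56 to 1.00). These intervals cover counting error only, and the spread between cultures adds to them. They are not adjusted for the 10 introns examined. The share of all introns whose interval leaves out 0 was not computed, so 1 such intron among 10 is not shown to be unusual.

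**Figure D3:**
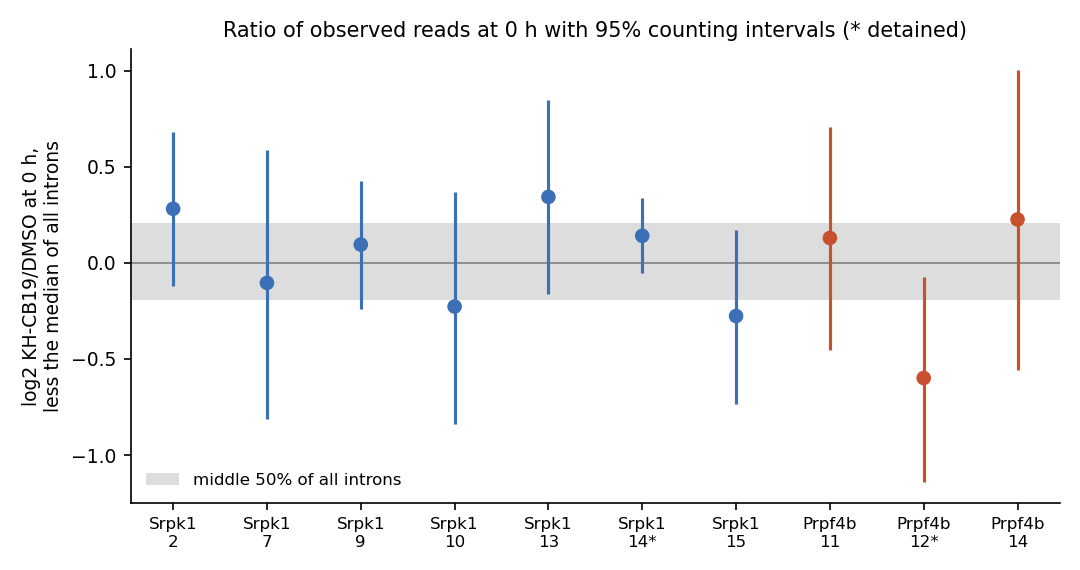
Log2 ratio of observed reads in KH-CB19 to DMSO at 0 h, less the median of all introns, for each intron of Srpk1 (blue) and Prpf4b (red). Vertical lines are exact 95% counting intervals from the summed reads of 2 libraries per group, and the grey band is the middle 50% of all introns. Only the interval of Prpf4b intron 12, at −0.60, does not reach 0, and the intervals are not adjusted for their number.

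The main comparison asked whether 2 h of Clk inhibition changed the reads in these introns, and only the detained introns had values for it. Neither detained intron passed the test, and both had higher means with KH-CB19. Srpk1 intron 14 had a mean of 222 normalised reads in DMSO and 317 in KH-CB19. This was 1.43-fold in the authors' deposited table (log2 ratio 0.51, adjusted p = 0.104). Prpf4b intron 12 had 32.1 normalised reads in DMSO and 44.7 in KH-CB19, 1.39-fold in the authors' deposited table (log2 ratio 0.48, adjusted p = 0.555). Of all 3454 detained introns, 9.64% passed in the authors' deposited table, 5.47% with a rise and 4.17% with a fall. The authors classed both introns as showing no change. RNA integrity numbers were 9.3 in both DMSO libraries at 2 h and 8.8 and 9.1 in the KH-CB19 libraries, and their part in these ratios was not tested. Since no other intron of these genes had a 2 h value, a change in the amount of the transcript and one in its splicing cannot be told apart.

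The 2 introns were also set beside detained introns with a like number of reads at 2 h. The log2 ratio of Srpk1 intron 14 was above that of 84.3% of detained introns, and 457 of them had a smaller adjusted p in the authors' deposited table. Its level in DMSO at 2 h was above that of 91.1% of them, and its mean over both groups was 269 reads. Of 320 detained introns with a mean within 1.5-fold of it, 42 rose and 22 fell, and by the authors' deposited table the smallest rise that passed was 0.62 on the log2 scale. Prpf4b intron 12 had a mean of 38.4 reads. Of 1173 detained introns within 1.5-fold of that mean, 30 rose and 38 fell, and by the authors' deposited table the smallest rise that passed was 1.01 on the log2 scale. Among introns of like depth, no rise as small as the one measured in either intron was called, which does not show that the level was the same. The spread between replicates was not available, so these smallest rises are not limits of detection.

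**Figure D4:**
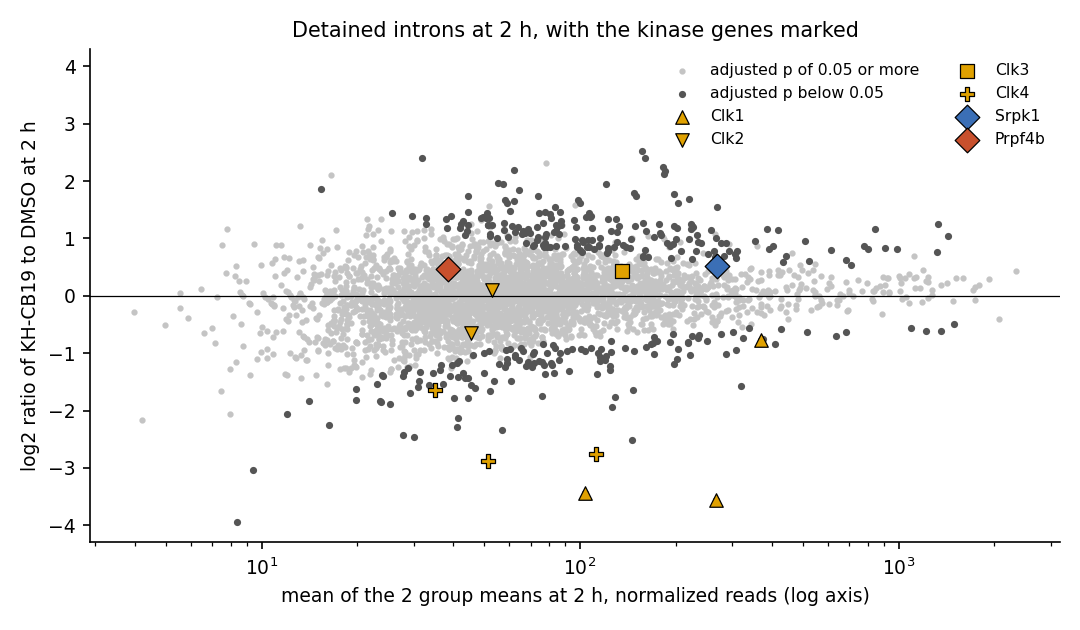
Log2 ratio of KH-CB19 to DMSO at 2 h against the mean of the 2 group means (log axis) for all 3454 detained introns, dark where the authors' adjusted p is below 0.05. Diamonds mark Srpk1 intron 14 (0.51) and Prpf4b intron 12 (0.48) inside the cloud of introns that did not pass, and yellow symbols mark the introns of Clk1 to Clk4, of which 6 fell.

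The change from 0 h to 2 h within each treatment was also described, with samples shared with the comparisons above. The 0 h means are unscaled and the 2 h means normalised, so each value is a log2 ratio of 2 h to 0 h relative to the median of detained introns in the same treatment. For Srpk1 intron 14 this was 0.25 in DMSO and 0.61 in KH-CB19, above 82.9% and 86.0% of detained introns. For Prpf4b intron 12 it was −0.15 in DMSO and 0.91 in KH-CB19, above 28.6% and 94.0%. The KH-CB19 value of Prpf4b intron 12 starts from the low 0 h mean of 23.5 reads described above. Across detained introns the SD of these ratios was 0.30 in DMSO and 0.61 in KH-CB19. No test was made on these ratios, since only group means were used.

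**Figure D5:**
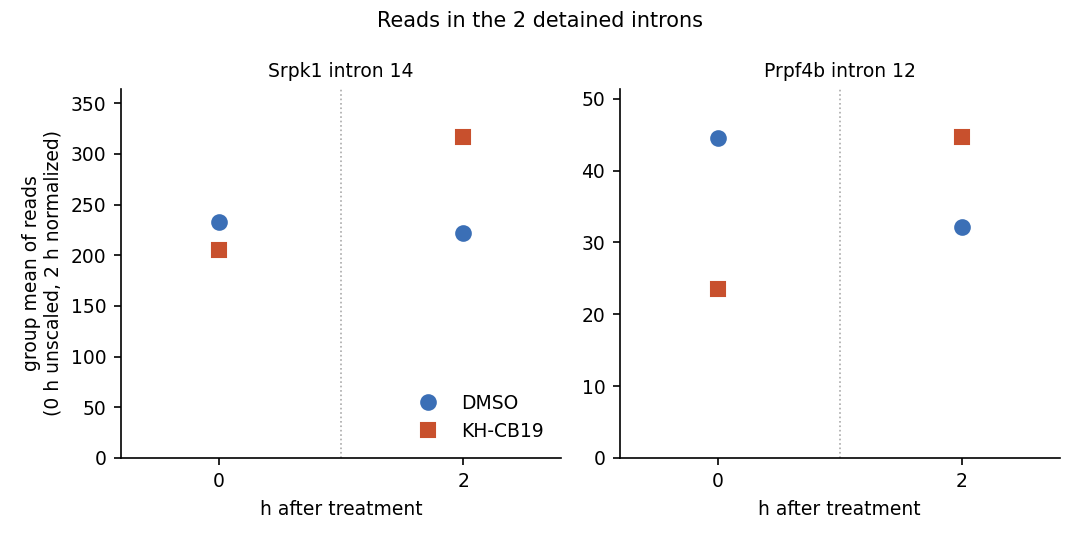
Group means of reads in Srpk1 intron 14 and Prpf4b intron 12 at 0 h (unscaled) and 2 h (normalised), in DMSO (blue circles) and KH-CB19 (red squares), with no error bars because only group means were used. In both introns KH-CB19 is the lower point at 0 h and the higher at 2 h, and the vertical dotted line separates the scales.

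Srpk1 and Prpf4b lay apart from Clk1 and Clk4 in their values, although the difference between genes was not tested. A list of 22 gene names of kinases that act on splicing factors or are related to those that do had 14 genes in the table. The list was chosen with earlier results of these data known, so its share called can follow from the choice. Of these, 6 had a detained intron and so a 2 h value, beside 34.6% of all genes. Of the 11 introns of these 6 genes, 6 fell, 0 rose and 5 did not pass, a share called of 54.5% beside 9.64% of all detained introns, and by the authors' deposited table their median log2 ratio was −0.78, against 0.00 over all detained introns. All 6 falls were in Clk1 and Clk4, with log2 ratios from −3.56 (Clk1 intron 5) to −0.78 (Clk1 intron 11) in the authors' deposited table. The 5 introns that did not pass were those of Srpk1 and Prpf4b, introns 4 and 7 of Clk2 (−0.64 and 0.11) and intron 3 of Clk3 (0.44) in the authors' deposited table. Srpk1 intron 14 had the highest log2 ratio of the 11. Srpk2, the paralogue of Srpk1, had 1 intron in the table, which was not classed as detained. Dyrk1a, Hipk1, Hipk2, Cdk11b, Cdk12, Cdk13 and Akt1 likewise had introns in the table and none of that class.

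Genes for 2 sets of proteins, among them some that the 2 kinases act on, were counted in the same way. Both sets were likewise chosen with earlier results known, so their shares called can follow from the choice. Of 16 genes listed for tri-snRNP proteins, the setting in which Prpf4b works, 14 were in the table. Of these, 9 had a detained intron, beside 34.6% of all genes. Of their 15 introns 1 rose and 0 fell, by the authors' deposited table, with a median log2 ratio of −0.02 and a share called of 6.67% beside the 9.64% of all detained introns. Of those averaging 50 reads or more at 2 h, 1 of 7 was called (14.3% beside 13.3%). At a threshold of 0.01 none of the 15 was, beside 6.28% of all detained introns. The rise was in intron 16 of Prpf3, a component of the U4/U6 particle (by the authors' deposited table a log2 ratio of 1.03, adjusted p = 0.0192). Of 20 genes listed for SR proteins and other substrates or partners of SRPK kinases, 19 were in the table. Of these, 14 had a detained intron, beside the same 34.6%. Of their 23 detained introns 3 rose and 6 fell by the authors' deposited table, or 39.1% beside the 9.64% of all detained introns. Their median log2 ratio was −0.20. With a mean of 50 reads or more at 2 h the share called was 40.9%, beside 13.3% of all such introns. The smallest adjusted p-values belonged to falls in the SR protein genes Srsf7 (intron 6, log2 ratio −2.52) and Srsf3 (intron 5, −1.56) and to a rise in the coactivator gene Srrm1 (intron 4, 1.69) in the authors' deposited table.

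The introns most like each detained intron were found by the distance over 3 log2 ratios: the excess in DMSO at 0 h, the excess in KH-CB19 at 0 h and the 2 h drug ratio. Intron 10 of Rpn1, which encodes a subunit of the oligosaccharyltransferase, was closest to Srpk1 intron 14 among 2117 candidates (distance 0.01). Its 2 h log2 ratio was 0.52 in the authors' deposited table. Intron 13 of Atl2, an atlastin of the endoplasmic reticulum, and intron 20 of Cwc22, a spliceosome protein, followed at 0.06 and 0.07. Candidates averaged 50 reads or more over the 4 groups, which Prpf4b intron 12 itself does not reach, and among these the nearest to it were intron 11 of Polr1c, a subunit of RNA polymerases I and III (distance 0.21), and introns 12 of Nfx1 and 44 of Fn1 (both 0.32). Since the 2 h ratio was part of the distance, likeness in it follows from the choice.

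Observed 0 h means summed to 1286589 reads over the 21568 introns with a value in DMSO and to 1002850 over 18740 in KH-CB19, and 2 h means over detained introns to 369104 and 392295. These sums are not the depth of whole libraries, which is unknown. Over all 8 libraries the RNA integrity numbers lay between 8.8 and 9.4. As to cell type, 11 of 12 markers of pluripotent stem cells had introns in the table, Pou5f1 and Nanog among them. None of 12 markers of germ layers and trophoblast did, and of 8 fibroblast markers only Fn1. Its 14 introns summed to 3265.5 observed reads in DMSO at 0 h, beside sums of 20 to 5780.5 per gene for the pluripotency markers.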

How the data were processed

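Polyadenylated RNA of v6.5 cells was sequenced with stranded, paired-end libraries, per the labels' protocols. The submitters' processing notes name mm9 and, among the authors' tools and without roles, TopHat2 2.0.9, Bowtie 1.0.0 and DESeq. How expected counts were made and detained introns chosen is not given in the sources used here. Per the file headers, the authors deposited group means, log2 ratios and adjusted p-values. The 0 h means were all multiples of 0.5, as means of 2 unscaled counts are. The 2 h means are the authors' normalised signal, given for detained introns alone. The authors' adjusted p-values are taken to be from DESeq, the only statistical tool named. No test was made here on group means, so the planned per-library fits were not run.

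Computed here, with Python 3.11.15, pandas 2.3.3 and scipy 1.17.1, were ratios, shares, percentiles, exact 95% intervals and distances. Like patterns were sought where the 4 group means averaged 50 reads or more. Starts were moved to count from 1. Sequences come from GENCODE M21 transcripts (GRCm38), matched by intron length and spacing, with no coordinate converted. Scaling and intervals were tested on simulated data. All introns listed for both genes are reported, and their transcripts hold further introns that are not listed. Every kinase intron with a 2 h value may be named, and other lists give up to 3 introns with the smallest adjusted p that passed. Members and lists were chosen with earlier results of these data known.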

Additional observations from a re-analysis of the deposited data

How the results depend on the processing

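With a threshold of 0.01, the excess of Prpf4b intron 12 in KH-CB19 at 0 h (log2 ratio 2.38 in the authors' deposited table) no longer passed. At that threshold 1 of the 10 introns was above and 1 below expectation in KH-CB19, in place of 3 and 3. In DMSO 2 were above and 2 below, also in place of 3 and 3. The share of all introns called at 0.01 was not computed for these 0 h comparisons. Pseudocounts of 0.1, 1 and 10 can only shrink a ratio and cannot turn its direction, so they are no check of direction. With a pseudocount of 10 the 2 h log2 ratios were 0.49 for Srpk1 intron 14 and 0.38 for Prpf4b intron 12. Reads per kb kept the direction of both excesses. The excess of Prpf4b intron 12 was smaller with a pseudocount of 10, at log2 ratios of 1.77 in DMSO (2.89 without) and 1.21 in KH-CB19, and with reads per kb in KH-CB19, at 1.71. The other scalings at 0 h and between times kept the direction for both detained introns and stayed within their counting intervals. Between times these intervals carry the counting error of the 0 h reads only and take the 2 h mean as exact. The tri-snRNP share called went from 6.67% to 14.3% with a minimum mean of 50 reads and to 0 introns at 0.01. The share of all detained introns went from 9.64% to 13.3% and to 6.28% under the same settings. The kinase counts stayed within 1.5 times under the 0.01 threshold and a minimum mean of 50 reads. No paired analysis was possible because the table holds group means, and no library could be left out for the same reason. Prpf4b intron 12 rests on 89 and 47 summed reads at 0 h, which limits its ratios.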
